A study of Mus musculus with 6 samples.

Results

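The 38 genes described here act in DNA replication and in the S phase of the cell cycle, in which a cell copies its chromosomes. They were chosen by name: all 38 symbols matched a gene ID among the 32061 in the count table. RNA came from hepatocytes, the main metabolic cells of the liver, freed from mouse liver by collagenase perfusion. In 3 samples, labelled senescent, the genotype was AhCre+Mdm2fl/fl: the mice carried a Cre recombinase transgene and 2 floxed copies of Mdm2, the gene of the ubiquitin ligase that holds p53 down. The 3 healthy samples were AhCre-, without the transgene, and the sources used here do not give their Mdm2 genotype. All 6 samples came from mice aged 10 to 12 weeks that received β-naphthoflavone, a ligand of the aryl hydrocarbon receptor that switches on the Cre promoter, at 20 mg/kg by intraperitoneal injection in corn oil for 48 h. The promoter limits the model, since Cre is made in whichever cells answer that ligand, and Cre itself and loss of Mdm2 cannot be told apart in this design. The labels leave unsaid whether every sample is a different mouse, and the p-values cover only the spread among these 6.

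Before S phase, the factors Cdc6 and Cdt1 load a ring of 6 subunits, Mcm2 to Mcm7, onto DNA at replication origins. Cyclin E with Cdk2, together with another kinase, then turns the ring into an active helicase by adding Cdc45 and the GINS complex. Most genes of this machinery are transcribed by activating E2F factors when the retinoblastoma protein releases them, and are shut off by the repressors E2f7 and E2f8 or by the DREAM complex. The adult liver is largely quiescent, and p53 acts against S phase through p21, the product of Cdkn1a, which inhibits Cdk2.

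Total counts were 29992707 to 32210591 per senescent and 28799392 to 33267299 per healthy library. Values are CPM, the reads of a gene relative to a TMM-scaled library total, in the order of replicates 1, 2 and 3, and means carry the SD over n = 3 libraries. Mdm2, a p53 target, had 465, 463 and 501 CPM in senescent and 19.0, 22.7 and 22.0 CPM in healthy libraries. The count spans the whole gene, so it does not check the deletion. Cdkn1a had 653, 773 and 724 CPM in senescent and 21.3, 31.1 and 54.3 CPM in healthy libraries. All 10 hepatocyte markers were detected in every library, with summed levels of 85626, 99014 and 84434 CPM in senescent and 156529, 160671 and 140187 CPM in healthy ones. Of these markers 0 rose and 6 fell (60.0%, beside 20.7% of all tested genes), with a median log2 fold change of -0.68.

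Of the 38 members, 36 had enough counts to be tested, and E2f7 and Cdc6 did not. In edgeR's quasi-likelihood test, adjusted by Benjamini-Hochberg over all 12949 tested genes, 14 members rose in senescent hepatocytes, 3 fell and 19 were not called. A rise was thus called for 38.9% of the tested members beside 20.4% of all tested genes, and a fall for 8.33% beside 20.7%. In either direction the shares were 47.2% and 41.1%. The median log2 fold change, senescent minus healthy, was 0.86 over the tested members and 0.01 over all tested genes. Of the rises, 12 were at least 2-fold. Of the tested members, 32 had a log2 fold change above 0, beside 50.9% of all tested genes. Of the 19 not called, 18 were above 0, and 6 had adjusted p of at least 0.05 but under 0.06. Values of the 2 groups did not overlap for 20 tested members that were higher and 3 that were lower, beside 26.8% and 27.2% of all tested genes. Scaled to total library size, 26 members rose and 3 fell, the member median was 1.17 and that of all genes 0.33. Changes below are relative to TMM scaling. Without healthy replicate 2, whose column in the table differs by 1 letter from the code in its label, 12 members rose and 2 fell. Those rises include Cdc6, which had enough counts to be tested in that fit.

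**Figure D1:**
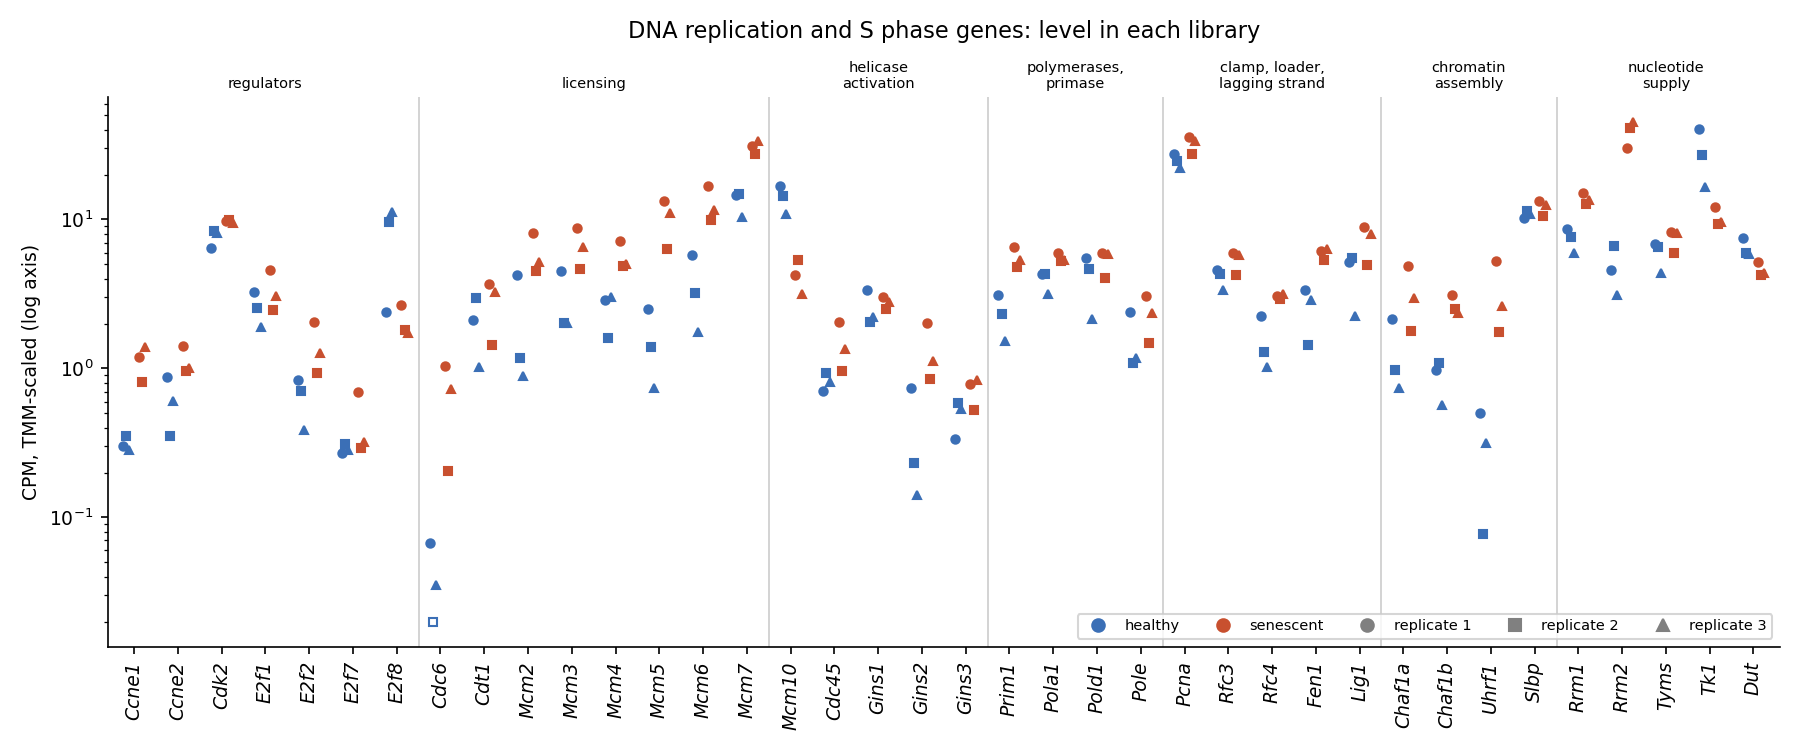
Level of each of the 38 genes in the 3 healthy (blue) and 3 senescent (orange) libraries, in TMM-scaled CPM on a log axis, grouped by role; symbols mark replicates 1, 2 and 3, and the open square is a count of 0, drawn at the foot of the axis. Senescent points lie above healthy points for most licensing genes and for Rrm2, and below them for Mcm10 and Tk1.

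Summed over all 38 genes, the level was 304, 238 and 282 CPM in senescent and 213, 185 and 145 CPM in healthy libraries. The groups did not overlap, and the mean went from 181 ± 33.9 to 274 ± 33.6 CPM. Without Rrm2, the member with the largest difference in CPM, the sums were 273, 196 and 236 CPM in senescent and 208, 178 and 142 CPM in healthy libraries, and the lowest senescent library was below the highest healthy one. Within a group many members shared an order of libraries, which was not counted over all genes. Senescent replicate 1 had the highest level of its group for 30 of 38 members, and senescent replicate 2 the lowest for 33. Among healthy libraries, replicate 1 was highest for 24 members and replicate 3 lowest for 25. Rrm2 ran against this order, with its lowest senescent level in replicate 1.

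Markers of other liver cells were measured in the same libraries. The 15 macrophage markers, none of them at 0 in any library, summed to 411, 271 and 536 CPM in senescent and 246, 291 and 113 CPM in healthy libraries. Senescent replicate 2 and healthy replicate 3 had the lowest sum of their groups. Of these markers 4 rose and 0 fell, with a median log2 fold change of 0.91. The count of rises was 9 with DESeq2, 7 with limma-voom, 13 with total library size and 10 with no filter, 1 without senescent replicate 3 and 9 without senescent replicate 2. Stellate cell markers summed to 30.4, 34.1 and 47.0 CPM in senescent and 11.8, 19.5 and 12.7 CPM in healthy libraries, and 7 of 11 tested rose, with Acta2 at 0 in every healthy library. Endothelial markers summed to 150.5, 127 and 165 CPM in senescent and 121, 136 and 108 CPM in healthy libraries, and 2 of 10 rose. Cholangiocyte markers summed to 17.1, 11.6 and 14.6 CPM in senescent and 8.22, 6.89 and 4.70 CPM in healthy libraries, with 2 of 4 tested risen and Sctr at 0 in every healthy library. Neutrophil markers summed to 4.21, 3.06 and 3.82 CPM in senescent and 1.41, 0.934 and 0.672 CPM in healthy libraries, and all 3 tested rose. Those 3 had enough counts to be tested only through senescent libraries. The same holds for the risen cholangiocyte marker Krt19 (4, 0 and 2 healthy counts) and the risen stellate cell marker Hgf (2, 15 and 25). Lymphocyte markers stayed at or under 1.65 CPM in sum, none had enough counts to be tested, and Klrb1c was at 0 in every healthy library. Erythroid markers summed to 12.4 to 19.3 CPM over the 6 libraries, and 1 of 6 tested fell. Over all tested genes 20.4% rose, beside 26.7% of macrophage, 20.0% of endothelial and 63.6% of stellate cell markers tested. A fall was called for 20.7% of all tested genes. The part of these other cells in the results on replication genes was not tested. In bulk RNA, fewer cells of a type and less RNA per cell cannot be told apart.

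**Figure D2:**
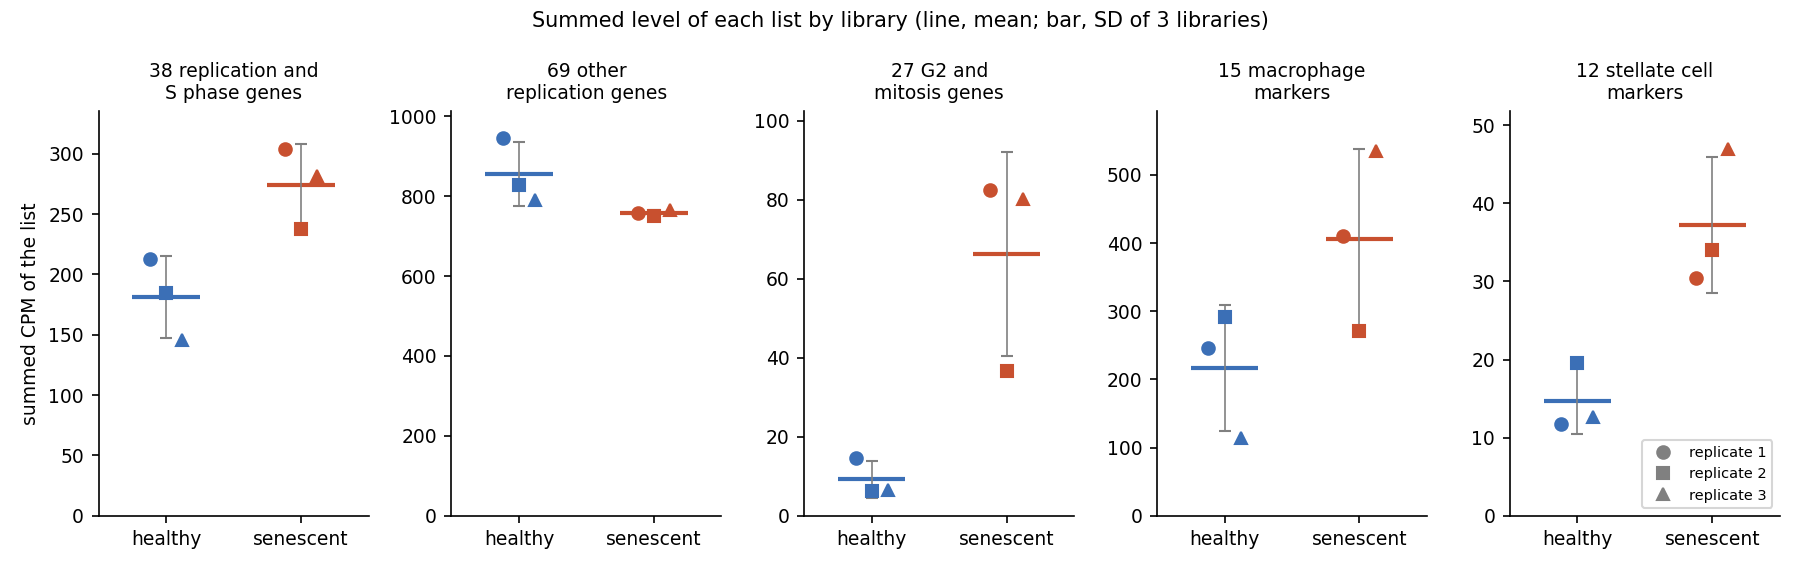
Summed CPM of 5 gene lists in each library, healthy in blue and senescent in orange, with symbols for replicates, a line for the mean and a bar for the SD over 3 libraries. The replication genes and the G2 and mitosis genes do not overlap between groups, the 69 other replication genes have a lower mean in senescent libraries, a direction that turns when Shmt1 is left out, and the macrophage markers overlap.

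The promoters of these genes are known for E2F sites, and their sequences show which members carry them in plain form. RefSeq promoter windows on GRCm38.p6, from 250 bases before to 50 bases after a gene's start, were found for 33 of the 38 members. They were searched on both strands for the words TTTCCCGC, TTTGGCGC, TTTCGCGC and TTTGCCGC, which can overlap each other. At least 1 such E2F word lay in a window of 15 of the 33 members (45.5%), against 2.60% of the 27025 genes in the promoter table. The share was 5 of 12 for risen members, 8 of 16 for those not called, 0 of 3 for the fallen ones and 2 of 2 for the untested E2f7 and Cdc6. By contrast, CHR words (TTTGAA or TTCGAA, the element read by DREAM in mitotic genes) occurred in 8 of 33 members and in 18 of 23 G2 and mitosis genes, against 21.7% of all genes. An E2F word was found for 1 of those G2 and mitosis genes. CCAAT, or its reverse complement, occurred in 21 of 33 members and 41.1% of all genes, and the p53 half-site in 3 of 33 members and 9.55% of all genes. A match is a description of the letters, and a window without one says nothing about the factor.

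Stretches before the start are printed for 4 members that rose (Mcm5, Mcm6, Uhrf1 and Rrm2) and the 3 that fell (Mcm10, E2f8 and Tk1), to set the plain E2F words beside promoters without one. They are written 5′ to 3′ on the strand of the gene and leave out bases that an annotated exon covers. Capitals mark E2F words and CCAAT or its reverse complement. They lie at chr8:75109309-75109508 (plus strand), chr1:128359706-128359905 (minus strand), chr17:56304113-56304312 (plus strand), chr12:24708054-24708240 (plus strand), chr2:5012792-5012991 (minus strand), chr7:48881597-48881796 (minus strand) and chr11:117826093-117826214 (minus strand), in that order, and for Uhrf1 the downstream one of its 2 listed starts is shown. Where a gene had several windows, the one with most E2F words was taken. The window at the other start of Uhrf1 holds CCAAT words and no E2F word.
Mcm5: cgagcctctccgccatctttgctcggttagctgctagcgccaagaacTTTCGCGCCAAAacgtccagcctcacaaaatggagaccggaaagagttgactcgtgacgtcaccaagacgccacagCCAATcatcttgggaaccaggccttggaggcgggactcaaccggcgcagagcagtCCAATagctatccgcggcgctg
Mcm6: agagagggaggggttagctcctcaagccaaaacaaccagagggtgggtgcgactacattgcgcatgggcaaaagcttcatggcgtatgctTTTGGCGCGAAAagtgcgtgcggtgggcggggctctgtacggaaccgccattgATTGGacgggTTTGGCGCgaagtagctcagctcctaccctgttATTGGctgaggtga
Uhrf1: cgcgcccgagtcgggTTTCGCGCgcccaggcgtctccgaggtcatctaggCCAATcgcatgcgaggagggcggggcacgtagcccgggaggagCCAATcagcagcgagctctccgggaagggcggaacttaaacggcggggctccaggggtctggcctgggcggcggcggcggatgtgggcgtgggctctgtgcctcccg
Rrm2: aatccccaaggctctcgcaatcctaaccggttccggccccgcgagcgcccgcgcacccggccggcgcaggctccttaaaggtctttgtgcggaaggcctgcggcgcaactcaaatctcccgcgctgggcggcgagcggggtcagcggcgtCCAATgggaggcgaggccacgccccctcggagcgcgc
Mcm10: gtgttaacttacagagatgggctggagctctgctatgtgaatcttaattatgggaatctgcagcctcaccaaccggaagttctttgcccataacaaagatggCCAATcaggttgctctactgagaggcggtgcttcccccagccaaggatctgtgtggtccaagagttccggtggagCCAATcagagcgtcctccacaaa
E2f8: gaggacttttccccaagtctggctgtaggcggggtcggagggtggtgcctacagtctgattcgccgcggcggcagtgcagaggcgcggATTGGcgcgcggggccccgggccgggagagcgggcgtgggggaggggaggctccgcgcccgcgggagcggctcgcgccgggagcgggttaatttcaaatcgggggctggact
Tk1: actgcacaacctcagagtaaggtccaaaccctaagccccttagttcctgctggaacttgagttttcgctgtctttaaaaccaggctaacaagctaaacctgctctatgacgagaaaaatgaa

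The Mcm5 stretch holds 2 overlapping E2F words, starting 153 and 149 bases before the start, and 2 CCAAT words. In the Mcm6 stretch there are 3 E2F words, at 110, 106 and 47 bases before the start. Uhrf1 has 1, at 185 bases. The Rrm2 stretch holds no E2F word in these spellings and 1 CCAAT, although Rrm2 had the largest rise in CPM of all members. Mcm10 has 2 CCAAT words, E2f8 has 1 on the opposite strand, and the 122 bases shown for Tk1 have none.

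Among the regulators of S phase entry, cyclin E1 rose and E2f8 fell. Ccne1, one of the cyclin partners of Cdk2, had 1.20, 0.816 and 1.39 CPM in senescent and 0.303, 0.350 and 0.283 CPM in healthy libraries, from 8 to 48 counts each. The groups did not overlap, and the log2 fold change was 1.85 ± 0.35 (edgeR adjusted p = 0.0041). Ccne1 had enough counts to be tested only through its senescent libraries. Its paralog Ccne2 went from 0.609 ± 0.263 to 1.13 ± 0.253 CPM and was not called, with a log2 fold change of 0.88 ± 0.38 (edgeR adjusted p = 0.1). Exons of Ints8 on the opposite strand, at 12.9 and 13.5 CPM on average in healthy and senescent libraries, cover 17.4% of Ccne2's exonic bases. The within-library log2 ratio of Ccne1 to Ccne2 was -0.84 ± 0.76 in healthy and -0.01 ± 0.40 in senescent libraries (exact permutation p = 0.3, adjusted p = 0.3), so unequal change of the cyclins was not shown. Cdk2, the kinase, had 6.47 to 8.37 CPM in the healthy group and 9.41 to 9.94 CPM in senescent libraries. Those ranges did not overlap, but the log2 fold change of 0.35 ± 0.14 was not called (edgeR adjusted p = 0.083).

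The activating factors E2f1 and E2f2 were not called. E2f1 had 1.91 to 3.27 CPM in the healthy group and 2.48 to 4.58 CPM in senescent libraries, overlapping ranges, with a log2 fold change of 0.39 ± 0.30 (edgeR adjusted p = 0.32). For E2f2 the log2 fold change was 1.14 ± 0.42 (edgeR adjusted p = 0.057), and without senescent replicate 2 it passed (1.41, adjusted p = 0.038), as it did with DESeq2 (adjusted p = 0.043). E2f7, an atypical E2F that represses S phase genes, had only 8 to 25 counts per library and was not tested, at 0.697, 0.291 and 0.318 CPM in senescent and 0.269, 0.311 and 0.283 CPM in healthy libraries. With no filter on low counts its log2 fold change was 0.60 (edgeR adjusted p = 0.43).

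E2f8, the partner of E2f7 in repression, at chr7:48866429-48881596 (minus strand) on GRCm38, fell. It had 2.68, 1.81 and 1.74 CPM in senescent and 2.39, 9.69 and 11.2 CPM in healthy libraries. Healthy replicate 1 lay inside the senescent range and the other 2 healthy libraries far above it. The log2 fold change was -1.90 ± 0.51 (edgeR adjusted p = 0.018), and the call was lost without senescent replicate 2 (0.057) or 3 (0.078), without healthy replicate 2 (0.057) and with limma-voom (0.075), all adjusted p. In the annotation, 11.2% of the exonic bases of E2f8 lie under exons of Gm2788 on the opposite strand. Gm2788 had 4.91, 2.10 and 1.10 CPM in senescent and 24.8, 41.7 and 41.2 CPM in healthy libraries, also lowest in replicate 1 of the healthy ones, with a log2 fold change of -3.72 ± 0.47 (edgeR adjusted p = 5.6e-04). The library kit keeps strand, per the labels, but the sources used here do not give the strand setting of the authors' counting, and reads of the 2 genes may be mixed. The log2 ratio of E2f8 to E2f1 within a library was -0.45, 1.93 and 2.54 in healthy and -0.77, -0.45 and -0.82 in senescent libraries, with healthy replicate 1 level with senescent replicate 2 (exact permutation p = 0.1, adjusted p = 0.133). The smallest p that 3 against 3 libraries allow is 0.1, and adjustment was over the 8 ratios computed. That of E2f7 to E2f8 was -4.39 ± 1.15 in healthy and -2.30 ± 0.34 in senescent libraries (exact permutation p = 0.1, adjusted p = 0.133).

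Of the 7 licensing genes tested, 5 rose (71.4%, beside 20.4% of all tested genes) and 0 fell, and all 5 belong to the ring. Of the helicase subunits Mcm2 to Mcm7, 5 of 6 rose, and the groups did not overlap for any of the 6. Over all tested genes, 26.8% were higher in senescent libraries without overlap. Mcm5 had the largest fitted rise of the ring, with 13.2, 6.35 and 11.0 CPM in senescent and 2.49, 1.40 and 0.742 CPM in healthy libraries and a log2 fold change of 2.71 ± 0.42 (edgeR adjusted p = 0.0016). Mcm6 had 16.8, 9.94 and 11.6 CPM in senescent and 5.76, 3.19 and 1.77 CPM in healthy libraries, with a log2 fold change of 1.83 ± 0.38 (edgeR adjusted p = 0.0063). Both carry E2F words in the stretches printed above. Mcm7 had 31.2, 27.5 and 33.9 CPM in senescent and 14.6, 14.9 and 10.4 CPM in healthy libraries, with a log2 fold change of 1.21 ± 0.16 (edgeR adjusted p = 7.5e-04). Taf6, a neighbour 6194 bases upstream on the same strand, rose as well, and its part in the level of Mcm7 was not tested.

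Mcm3 had 8.82, 4.66 and 6.51 CPM in senescent and 4.48, 2.02 and 2.02 CPM in healthy libraries, the highest healthy value just under the lowest senescent one. Its log2 fold change was 1.22 ± 0.36 (edgeR adjusted p = 0.026). That call was lost without senescent replicate 1 (adjusted p = 0.071) or 3 (0.062) and without healthy replicate 2 (0.087) or 3 (0.068). Mcm4 had 7.14, 4.87 and 5.04 CPM in senescent and 2.90, 1.60 and 3.04 CPM in healthy libraries, with a log2 fold change of 1.17 ± 0.28 (edgeR adjusted p = 0.011). Mcm2, which had 8.15, 4.49 and 5.15 CPM in senescent and 4.24, 1.17 and 0.884 CPM in healthy libraries, was the subunit not called, at a log2 fold change of 1.49 ± 0.54 (edgeR adjusted p = 0.055). Healthy replicate 1 stood well above the other healthy libraries for Mcm2, and without it the log2 fold change was 2.53 (edgeR adjusted p = 0.0015). It also passed with DESeq2 (adjusted p = 0.0099) and limma-voom (0.023).

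Per kilobase of exonic length, the subunits were not at equal levels. In healthy libraries Mcm7 had 3.01 ± 0.569 CPM per kb, while Mcm2 to Mcm6 had 0.302 ± 0.268, 0.757 ± 0.379, 0.700 ± 0.222, 0.387 ± 0.221 and 0.766 ± 0.434 CPM per kb. In senescent libraries Mcm7 had 6.98 ± 0.722 CPM per kb and the other 5 ranged from 0.852 ± 0.280 for Mcm2 to 2.74 ± 0.766 for Mcm6. The log2 ratio of Mcm7 to the geometric mean of Mcm2 to Mcm6 was 2.60 ± 0.59 in healthy and 2.02 ± 0.36 in senescent libraries, with overlapping groups (exact permutation p = 0.3, adjusted p = 0.3). Mcm7 is crowded by other genes: Ap4m1, on the opposite strand over 7.25% of its exonic bases, fell from 15.3 ± 2.83 to 6.90 ± 1.164 CPM (edgeR adjusted p = 0.0017).

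**Figure D3:**
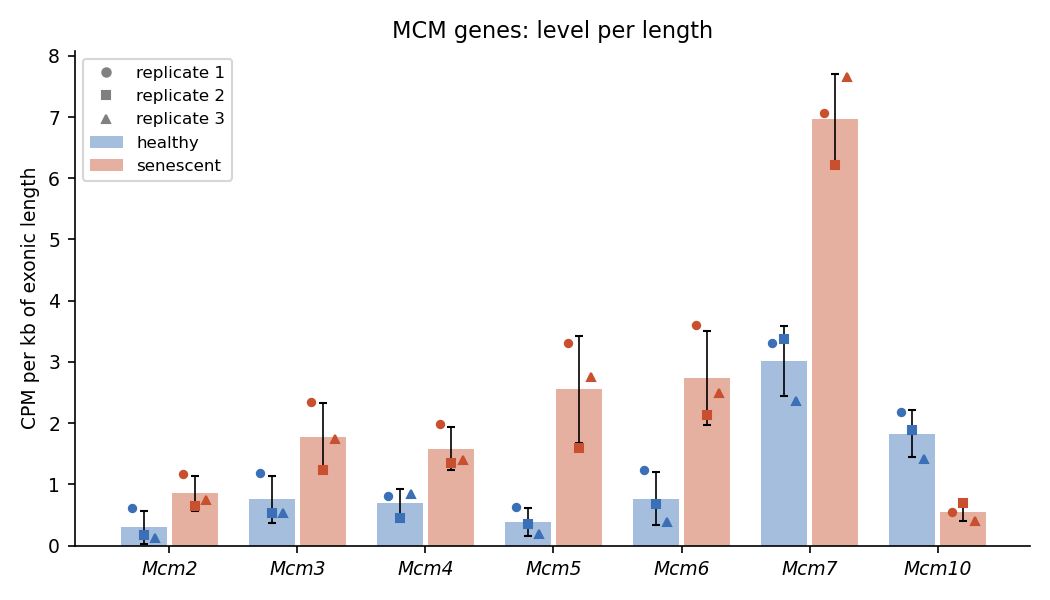
CPM per kilobase of exonic length for the 6 helicase subunits and Mcm10, as the mean (bar) and SD (whisker) of 3 libraries per group with each library as a point, healthy in blue and senescent in orange. Mcm7 is the highest subunit in both groups, and Mcm10 is the only gene shown that is lower in senescent libraries.

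The loading factors were less clear. Cdc6, which recruits the ring to origins, had 69 counts in the senescent libraries together and 3 in the healthy ones, and was not tested. By library it had 37, 7 and 25 counts in senescent and 2, 0 and 1 in healthy libraries, a ratio after scaling of 18.4 with a 95% exact interval of 6.03 to 91.3 that covers counting error only. With no filter its log2 fold change was 4.05 (edgeR adjusted p = 0.004). In the fits without 1 library that tested it, the value lay between 3.56 without healthy replicate 2 (adjusted p = 0.03) and 4.87 without healthy replicate 1 (0.018). Cdc6 had enough counts for those fits only through senescent libraries, so their p-values add no independent support for a rise. Cdt1, its partner in loading, had 1.03 to 2.96 CPM in the healthy group and 1.43 to 3.71 CPM in senescent libraries, with a log2 fold change of 0.47 ± 0.45 (edgeR adjusted p = 0.43) and overlapping groups.

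The genes that turn the loaded ring into a moving helicase did not change together. Mcm10, which joins at origin firing and is no subunit of the ring, fell. It had 4.27, 5.36 and 3.16 CPM in senescent and 16.8, 14.5 and 10.9 CPM in healthy libraries. Every healthy library was above every senescent one, the log2 fold change was -1.72 ± 0.23 (edgeR adjusted p = 7.9e-04), and the fall was called in all 15 alternatives run. Per kilobase, Mcm10 went from 1.83 ± 0.388 CPM in healthy libraries, above each of Mcm2 to Mcm6, to 0.554 ± 0.143 CPM in senescent ones, below each of them. The gene lies at chr2:4989714-5012791 (minus strand) on GRCm38, and no other gene's exons overlap it in the annotation.

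Of the GINS subunits, Gins2 was called higher, at 2.01, 0.845 and 1.13 CPM in senescent and 0.741, 0.233 and 0.141 CPM in healthy libraries, or 29 to 72 against 4 to 22 counts. Its log2 fold change was 1.81 ± 0.59 (edgeR adjusted p = 0.039). Gins2 had enough counts to be tested only through its senescent libraries. The call was lost without senescent replicate 1 (adjusted p = 0.11) or 3 (0.073) and without healthy replicate 2 (0.12) or 3 (0.09), and without healthy replicate 1 the value was 2.81. Exons of Gse1 on the opposite strand cover 67.3% of the exonic bases of Gins2, and Gse1 itself rose from 11.0 ± 1.37 to 42.4 ± 4.74 CPM (edgeR adjusted p = 2.6e-05), so this call is uncertain. Gins1 was at 2.55 ± 0.711 CPM in the healthy and 2.78 ± 0.267 CPM in the senescent group (log2 fold change 0.12 ± 0.25, edgeR adjusted p = 0.73), and its sign turned without healthy replicate 2 (-0.018). Gins3 had a log2 fold change of 0.57 ± 0.37 (edgeR adjusted p = 0.25). Cdc45, which joins the ring with GINS, had a log2 fold change of 0.84 ± 0.35 (edgeR adjusted p = 0.089), and passed without senescent replicate 2 (1.11, adjusted p = 0.046).

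**Figure D4:**
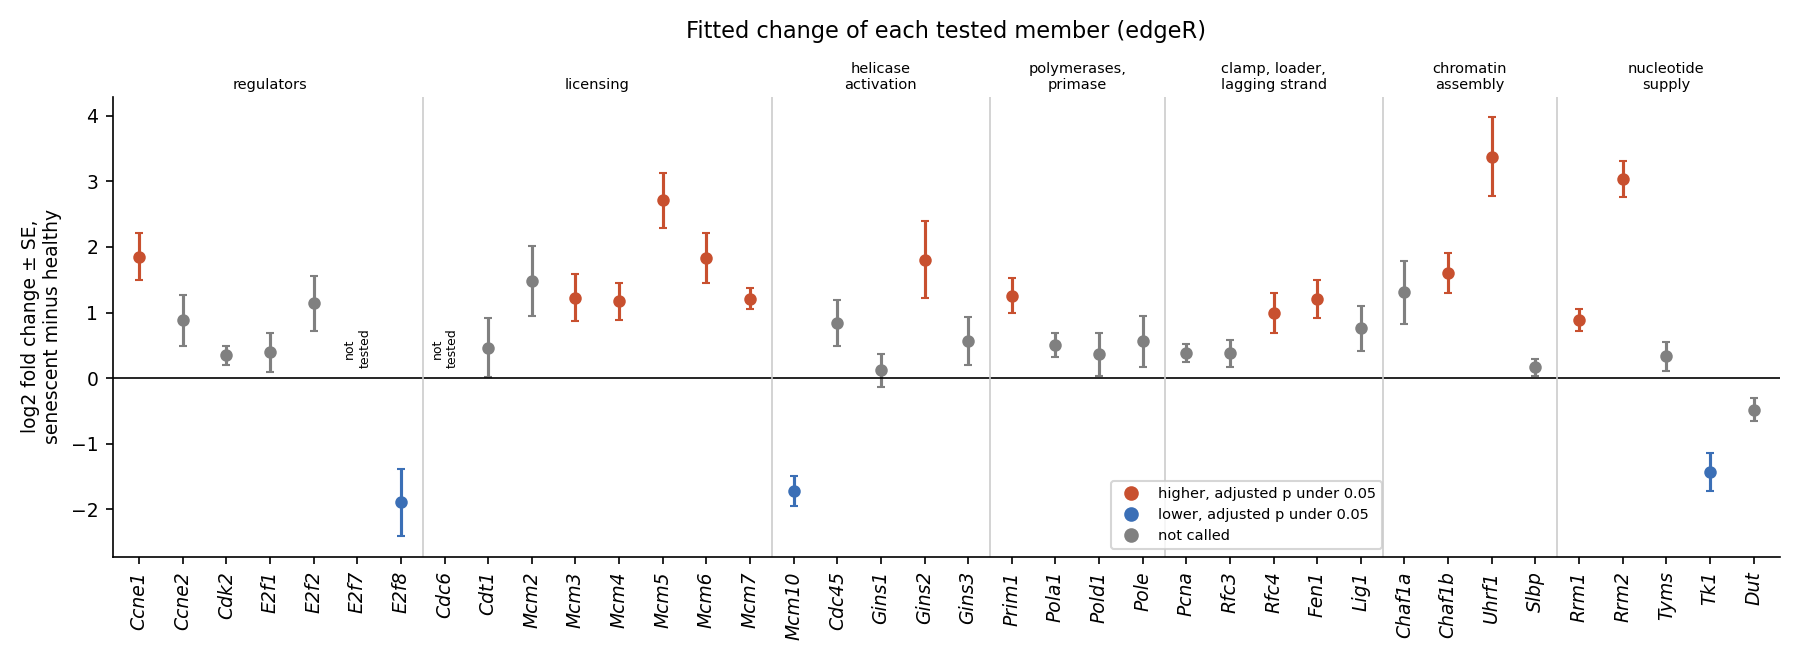
Fitted log2 fold change, senescent minus healthy, with its SE for each of the 36 tested members, grouped by role; orange marks rises and blue falls at an adjusted p under 0.05, grey marks genes not called. The licensing genes are all above 0, while E2f8, Mcm10 and Tk1 are the called values below it.

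Among polymerase genes, 1 of 4 rose. Prim1, the catalytic primase subunit that lays down the RNA primer, had 6.50, 4.81 and 5.36 CPM in senescent and 3.10, 2.33 and 1.52 CPM in healthy libraries, with a log2 fold change of 1.26 ± 0.27 (edgeR adjusted p = 0.0073). Pola1, the catalytic subunit of polymerase alpha that extends this primer, had a log2 fold change of 0.50 ± 0.18 (edgeR adjusted p = 0.055), and its groups did not overlap. For Pold1 and Pole, the catalytic subunits of the main lagging and leading strand polymerases, the log2 fold changes were 0.37 ± 0.33 (edgeR adjusted p = 0.4) and 0.56 ± 0.39 (edgeR adjusted p = 0.28), with overlapping groups for both.

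Pcna, the sliding clamp that holds polymerases on DNA, was not called, although it had the highest level per kilobase of all members in healthy libraries (10.4 ± 1.14 CPM per kb). Pcna had 35.7, 27.6 and 33.7 CPM in senescent and 27.7, 24.8 and 22.2 CPM in healthy libraries, with a log2 fold change of 0.38 ± 0.14 (edgeR adjusted p = 0.056). Its near-identical copy Pcna-ps2 was not analysed here. Senescent replicate 2 fell inside the healthy range of Pcna. Without that library the log2 fold change was 0.52 (edgeR adjusted p = 0.028), and without healthy replicate 1 the value was 0.45 (0.043). Fen1, the nuclease that trims the flaps of lagging strand fragments, rose, with 6.17, 5.33 and 6.37 CPM in senescent and 3.37, 1.44 and 2.86 CPM in healthy libraries and a log2 fold change of 1.21 ± 0.29 (edgeR adjusted p = 0.011). The log2 ratio of Pcna to Fen1 was 3.36 ± 0.63 in healthy and 2.43 ± 0.09 in senescent libraries, without overlap (exact permutation p = 0.1, adjusted p = 0.133). Fen1 shares 78.8% of its exonic bases with Gm10143 on the opposite strand, a gene not analysed here.

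Of the 2 clamp loader subunits among the members, Rfc4 rose, from 2.26, 1.28 and 1.03 CPM in the healthy libraries to 3.07, 2.94 and 3.16 CPM in the senescent ones, with a log2 fold change of 1.00 ± 0.31 (edgeR adjusted p = 0.03). Its call was lost in 5 of 6 fits that left out 1 library: without senescent replicates 1, 2 and 3 (adjusted p = 0.058, 0.052 and 0.076) and healthy replicates 2 and 3 (0.096 and 0.068). Exons of Eif4a2 on the opposite strand, at 256 and 253 CPM on average in healthy and senescent libraries, cover 12.7% of Rfc4's exonic bases. Reads of the 2 genes may be mixed. Rfc3 was not called, at a log2 fold change of 0.38 ± 0.21 (edgeR adjusted p = 0.17). Lig1, the ligase that seals lagging strand fragments, was at 4.31 ± 1.79 CPM in the healthy and 7.29 ± 2.06 CPM in the senescent group (log2 fold change 0.76 ± 0.34, edgeR adjusted p = 0.11).

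Genes that restore chromatin behind the fork included the largest fitted rise of the 36 tested members. Uhrf1, which brings the maintenance DNA methyltransferase to newly made DNA, had 5.27, 1.75 and 2.63 CPM in senescent and 0.505, 0.0778 and 0.318 CPM in healthy libraries, or 60 to 189 against 2 to 15 counts. Its log2 fold change was 3.38 ± 0.60 (edgeR adjusted p = 0.0029), and it was called in all 15 alternatives. Like the risen Ccne1 and Gins2, Uhrf1 had enough counts to be tested only through its senescent libraries. A gene as low in both groups would not have been tested. Chaf1b, a subunit of the histone chaperone CAF-1, rose from 0.977, 1.09 and 0.566 CPM in the healthy to 3.12, 2.51 and 2.34 CPM in the senescent group, with a log2 fold change of 1.60 ± 0.30 (edgeR adjusted p = 0.004). Its larger partner Chaf1a was not called, at a log2 fold change of 1.31 ± 0.48 (edgeR adjusted p = 0.058). Senescent replicate 2 was inside the healthy range for Chaf1a, and without it the log2 fold change was 1.64 (edgeR adjusted p = 0.028). Without healthy replicate 1 it was 1.90 (0.018), and Chaf1a also passed with DESeq2 (adjusted p = 0.018). Exons of Ubxn6 on the opposite strand cover 52.5% of the exonic bases of Chaf1a. Ubxn6 had 40.7 CPM on average in healthy and 33.2 CPM in senescent libraries, and reads of the 2 genes may be mixed. Slbp, which binds the stem-loop of histone mRNA, had 13.4, 10.6 and 12.4 CPM in senescent and 10.3, 11.4 and 10.9 CPM in healthy libraries, overlapping, with a log2 fold change of 0.16 ± 0.13 (edgeR adjusted p = 0.35).

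Nucleotide supply genes moved in both directions. Rrm2, the regulated subunit of ribonucleotide reductase, which makes deoxyribonucleotides, lies at chr12:24708241-24714146 (plus strand) on GRCm38. It had 30.4, 41.4 and 45.4 CPM in senescent and 4.55, 6.65 and 3.11 CPM in healthy libraries. Every senescent library was above every healthy one, by 8.19-fold between the means, and the log2 fold change was 3.04 ± 0.27 (edgeR adjusted p = 9.3e-05). The large subunit Rrm1 rose less, with 14.98, 12.6 and 13.4 CPM in senescent and 8.59, 7.63 and 5.97 CPM in healthy libraries and a log2 fold change of 0.89 ± 0.16 (edgeR adjusted p = 0.0034). The log2 ratio of Rrm2 to Rrm1 was -0.68 ± 0.42 in healthy and 1.497 ± 0.41 in senescent libraries, without overlap (exact permutation p = 0.1, adjusted p = 0.133). Per kilobase, Rrm2, which also has a near-identical copy not analysed here, passed from 1.72 ± 0.643 to 14.1 ± 2.81 CPM, at the level of Pcna in senescent libraries (13.5 ± 1.77). Rrm2b, the ribonucleotide reductase subunit known as a p53 target, was not called, at 2.51, 2.74 and 3.85 CPM in senescent and 1.82, 2.02 and 2.62 CPM in healthy libraries and a log2 fold change of 0.49 ± 0.26 (edgeR adjusted p = 0.16). Relative to it, the log2 ratio of Rrm2 was 1.09 ± 0.76 in healthy and 3.69 ± 0.20 in senescent libraries (exact permutation p = 0.1, adjusted p = 0.133).

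Tk1, the S phase thymidine kinase of the salvage pathway, at chr11:117815526-117826092 (minus strand) on GRCm38, fell. It had 12.2, 9.27 and 9.58 CPM in senescent and 40.3, 26.97 and 16.6 CPM in healthy libraries. The groups did not overlap, although the healthy libraries spread widely, and the log2 fold change was -1.44 ± 0.29 (edgeR adjusted p = 0.0055), called in all 15 alternatives. Tyms, which makes thymidylate by the other route, was at 5.91 ± 1.33 CPM in the healthy and 7.43 ± 1.31 CPM in the senescent group (log2 fold change 0.33 ± 0.22, edgeR adjusted p = 0.25). The log2 ratio of Tk1 to Tyms was 2.17 ± 0.34 in healthy and 0.48 ± 0.22 in senescent libraries, without overlap (exact permutation p = 0.1, adjusted p = 0.133). Afmid, a gene of tryptophan breakdown on the opposite strand that shares 1.60% of the exonic bases of Tk1, had 15.4, 17.6 and 17.3 CPM in senescent and 64.7, 48.3 and 48.4 CPM in healthy libraries. Its log2 fold change was -1.68 ± 0.15 (edgeR adjusted p = 7.7e-05), and healthy replicate 1 was the highest library for both genes. Dut, which removes dUTP, was not called, at a log2 fold change of -0.48 ± 0.18 (edgeR adjusted p = 0.057), with every senescent library below every healthy one.

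**Figure D5:**
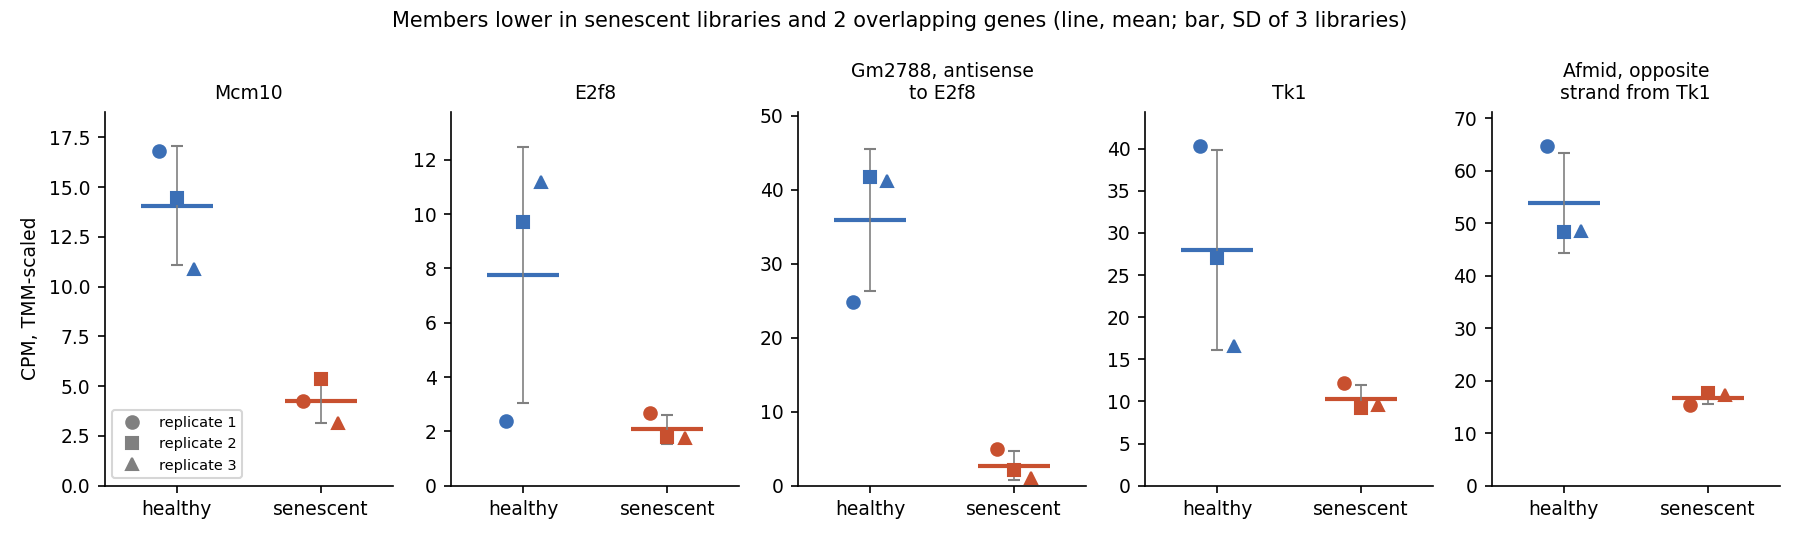
TMM-scaled CPM by library for the 3 members called lower and for the genes that overlap E2f8 and Tk1 on the opposite strand, with a line for the mean and a bar for the SD over 3 libraries. Healthy replicate 1 (circle) is low for both E2f8 and Gm2788 and high for both Tk1 and Afmid.

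Other genes of the replication pathway, 69 in all and listed by function, were examined for comparison. Of 63 tested, 17 rose and 4 fell, with a median log2 fold change of 0.23. In either direction 33.3% were called, beside 41.1% of all tested genes. The share that rose was above the 20.4% of all tested genes, and the share that fell was below their 20.7%. These differences in share were not tested. The count of rises was 35 with total library size, 11 without senescent replicate 1, 8 without senescent replicate 3 and 11 without healthy replicate 2. Their summed level was lower in senescent libraries, at 758 ± 7.88 against 855 ± 80.4 CPM, so the sum and the median differ in sign. Without Shmt1, chosen after its values were seen, the sums were 661, 663 and 701 CPM in senescent and 631, 613 and 597 CPM in healthy libraries, so the direction of the sum rests on that gene. None of 9 tested origin recognition and licensing control genes was called by edgeR, DESeq2 or limma-voom, and at an unadjusted edgeR p under 0.05 the count was 0. Rises numbered 5 of 9 for origin firing, 4 of 5 for fork protection, 3 of 7 for chromatin assembly, 2 of 13 for single-strand binding, loading and lagging strand genes, and 1 of 7 for polymerase subunits. For nucleotide supply 1 of 7 rose and 2 fell, and of 6 E2F and DP factors 1 rose. Shares of these small groups were not tested against the 20.4% risen over all tested genes. The other 2 falls were a polymerase subunit and a lagging strand gene.

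The risen pathway genes with the smallest p were Cdc25a, Dck, Dnmt1 and Ccna2. Cdc25a, the phosphatase that activates Cdk2, had 13.9, 15.2 and 16.3 CPM in senescent and 3.47, 3.81 and 4.10 CPM in healthy libraries, tightly grouped, with a log2 fold change of 2.00 ± 0.14 (edgeR adjusted p = 2.4e-05). The nucleoside kinase gene Dck went from 2.82 ± 0.969 to 8.70 ± 1.49 CPM (log2 fold change 1.62 ± 0.27, edgeR adjusted p = 0.0021), and the maintenance methyltransferase gene Dnmt1, which acts with Uhrf1, from 9.69 ± 2.11 to 18.9 ± 2.99 CPM (log2 fold change 0.96 ± 0.19, edgeR adjusted p = 0.0052). Ccna2, the S phase cyclin, went from 0.361 ± 0.304 to 2.71 ± 1.15 CPM with a log2 fold change of 2.88 ± 0.58 (edgeR adjusted p = 0.0052), and 3.83 without healthy replicate 1. It had enough counts to be tested only through its senescent libraries. Among the 4 falls were those of Pold2, the accessory subunit of polymerase delta, from 10.7 ± 0.284 to 4.59 ± 0.143 CPM, Shmt1, an enzyme of folate metabolism, from 241 ± 63.9 to 83.1 ± 16.6 CPM, and Rnaseh2a, from 13.4 ± 3.03 to 6.08 ± 0.695 CPM. Their edgeR adjusted p were 2.1e-04, 0.001 and 0.0024.

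Genes of the RB and DREAM pathway were measured as well, on a list that also holds Cdkn1a, a CDK inhibitor, and Mybl2, the partner of the activating MuvB complex. Of its 9 tested genes 3 rose and 2 fell (33.3% and 22.2%, beside 20.4% and 20.7% of all tested genes). Besides Cdkn1a, Rb1, the retinoblastoma gene, had 19.5, 22.7 and 30.0 CPM in senescent and 3.74, 3.85 and 4.24 CPM in healthy libraries (log2 fold change 2.61 ± 0.18, edgeR adjusted p = 2.6e-05), and Rbl1, the gene of p107, went from 1.32 ± 0.396 to 3.65 ± 0.0806 CPM (log2 fold change 1.46 ± 0.26, edgeR adjusted p = 0.0028). Rbl2, the gene of p130, fell by 0.55 ± 0.13 on the log2 scale (edgeR adjusted p = 0.01), and Rbbp4 fell by 0.49 ± 0.11 (0.0078). With its 26 tested genes, the G2 and mitosis list had 25 rises (96.2%, beside 20.4% of all tested genes) and 0 falls. Its median log2 fold change was 3.01, or 3.76 without healthy replicate 1, beside 0.86 for the replication genes. Most of the tested G2 and mitosis genes had enough counts to be tested only through senescent libraries, such as Ttk (4, 1 and 1 healthy counts) and Nuf2 (6, 1 and 0). A gene this low in both groups would not have been tested, so calls of such genes lean towards rises. The share of rises and the median of this list rest mostly on such genes and lean the same way. The list summed to 82.4, 36.5 and 80.0 CPM in senescent and 14.7, 6.34 and 6.61 CPM in healthy libraries, with senescent replicate 2 again the lowest of its group. Whether the 2 lists differ in their change was not tested.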

How the data were processed

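Polyadenylated RNA of 6 hepatocyte samples was sequenced, 3 senescent and 3 healthy by the titles in the labels. The authors deposited raw counts per gene in a single table of 32061 gene IDs, with 0 columns of other samples. Per the submitters' processing notes the tools include STAR 2.7.1a and featureCounts and the build is GRCm38. How they were set, strand included, is not stated in the sources used here. Of the 6 columns 5 carry a sample's exact code, and the remaining one was taken as healthy replicate 2, whose code differs from it by a single letter.

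From the counts, genes were kept by filterByExpr at a minimum count of 10 and a total of 15, scaled by TMM and fitted with edgeR 4.0.16 under R 4.3.3. Its two-sided quasi-likelihood test had group as its sole term, and calls were made at an adjusted p under 0.05. The SE is the log2 fold change over the square root of F. Alternatives were DESeq2 1.42.0, limma-voom (limma 3.58.1), other scalings, filters and thresholds, a replicate block and each library left out. Ratios within a library used counts plus 0.5 and an exact two-sided permutation test over 8 ratios. Lengths and overlaps come from GENCODE M21. The fits were tested on simulated data. Each member is named with its log2 fold change where tested, called or abundant members with every library, and 4 risen and 4 fallen pathway genes by smallest p, of which 1 is not reported here. Members, lists and the promoters printed were chosen with earlier results of these data known. The replicate numbers were not taken to pair the samples.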

Additional observations from a re-analysis of the deposited data

How the results depend on the processing

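Scaled to total library size, 4861 genes rose and 1285 fell in all, 26 members rose and 3 fell, and 35 pathway genes rose. At an adjusted p under 0.01 the counts were 1570 rises and 1498 falls in all, 9 rises of members and 7 of pathway genes. Single libraries left out gave 11 to 18 rises and 2 to 3 falls of members with a median of 0.66 to 1.02, 8 to 18 rises of pathway genes, and 1836 to 2691 rises and 1489 to 2789 falls in all. Cdc6 counts among the member rises in the fits that tested it. With DESeq2 17 members rose, with limma-voom 15. Of the 17 called members, 13 kept their call in every alternative that tested them except the stricter threshold, and 11 in that one too; among these Ccne1 was not tested under a filter at a mean of 1 CPM. Gins1 alone changed sign, and its leave-one-out log2 fold changes lay between -0.018 and 0.37, the lowest without healthy replicate 2. With the replicate number as a block, 17 members rose and 3 fell, and Mcm2, Chaf1a and Pcna gained a call. The deviations of same-numbered libraries from their group means correlated at 0.21, -0.15 and -0.06, and those of differently numbered ones at -0.30 to 0.36. So few libraries cannot show whether equal numbers pair the samples. Depth limits the genes under about 1 CPM, among them Cdc6, E2f7, Gins2 and Uhrf1 in healthy libraries, where 3 counts are 0.101 to 0.117 CPM.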

Other observations

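The following values were noticed after the data had been seen and belong to genes beside the members. Taf6, a general transcription factor subunit gene that lies 6194 bases upstream of Mcm7 on the same strand, had 228, 262 and 276 CPM in senescent and 16.6, 17.8 and 15.3 CPM in healthy libraries, a log2 fold change of 3.95 ± 0.14 (edgeR adjusted p = 6.5e-07), larger than that of Mcm7. Its part in the rise of Mcm7 was not tested. Hsd17b6, a steroid dehydrogenase gene near Prim1 on the opposite strand, went the other way from Prim1, from 249.7 ± 17.8 to 62.1 ± 9.64 CPM. Fads1, a fatty acid desaturase gene 2254 bases downstream of Fen1 on the opposite strand, went from 794 ± 134 to 322 ± 6.11 CPM, and Pxmp2, which lies 119 bases upstream of Pole on the opposite strand, from 134 ± 34.4 to 54.6 ± 7.53 CPM.

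Near-identical copies were looked for by aligning the longest protein-coding transcript of each member to all annotated transcripts, at 95% identity or more over at least 200 bases. On the same strand, and leaving out a repeat in Tyms, copies were found for Mcm7 (Gm5487, 97.7% over 2157 bases), Uhrf1 (Gm5648, 98.3% over 1590 bases), Cdc6 (Gm9430, 95.2% over 1528 bases), Slbp (Gm8396, 95.5% over 828 bases), Pcna (Pcna-ps2, 99.2% over 781 bases) and Rrm2 (Gm48455, 95.5% over 419 bases). The copies of Mcm7, Uhrf1, Cdc6 and Slbp held at most 0.459 CPM on average in either group. Those of Pcna and Rrm2 were not analysed here, and reads of these members may be split.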
